A study of Homo sapiens with 4 samples.

Results

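Receptor tyrosine kinases are the cell-surface receptors through which most growth factors act. The set described here holds 43 receptor genes and KITLG, the gene of the ligand of KIT, and was drawn up by name from the known families of this class. A gene counted as measured when the array's annotation gave at least 1 probe set to it and to no other gene. That was so for 42 of the 44 genes, with 147 probe sets in all, out of 19775 genes named on the array. EPHB2 had no such probe set, and the DDR1 probe sets are annotated to a microRNA gene as well, so neither was used.

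Expression was measured in the established human bladder carcinoma line UM-UC-3 on Affymetrix HG-U133 Plus 2.0 arrays. The control cells stably carried GFP, the green fluorescent protein, and the other cells stably carried GFP fused to RhoGDI2, the product of ARHGDIB, which the series title calls a metastasis suppressor. Each group had 2 arrays, from preparations A and B, with the A preparations of both groups made at the same time and likewise the B preparations, and all cells were sorted for fluorescence and harvested while growing exponentially. The labels give puromycin selection through a co-transfected plasmid for the GFP cells; for the GFP-RhoGDI2 samples the free-text description speaks of the control transfection, while title, source and genotype name the fusion. The sources used here do not say whether the preparations stem from separate transfections, so the p-values refer to preparations of these 2 lines. The spread behind each p-value comes mostly from a prior pooled over all probe sets tested, not from the gene alone. What arose while a line was being established cannot be told apart from what follows the fusion protein.

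A typical receptor of this class has an extracellular part that binds a ligand, a single pass through the membrane and an intracellular kinase. In many families ligand binding brings receptors together, and they phosphorylate each other. Adaptor proteins such as GRB2, SHC1 and the IRS proteins then start the RAS-MAPK and PI3-kinase cascades, which Sprouty and dual-specificity phosphatase proteins damp. In the urothelium and its tumours, EGFR, ERBB2 and FGFR3 are the best known members. EPH receptors differ in that their ligands, the ephrins, sit on neighbouring cells, and DDR receptors in that they bind collagen.

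Values are log2 RMA expression, in which a difference of 1 is a 2-fold change. They are not comparable between probe sets, and with no detection calls a low value is not shown to be above background. Probe sets with a mean over the 4 arrays at or above the median of 4.637 were tested with limma, with preparation as a block, and a probe set was called at an adjusted p under 0.05. ARHGDIB read 6.51 and 6.27 in GFP cells (A, then B) against 11.94 and 11.58 in GFP-RhoGDI2 cells. Of 16 urothelial and epithelial markers on the array, 5 were at or above the filter level (KRT7, KRT8, KRT18, GATA3 and PPARG), while the 5 uroplakin genes, EPCAM and CDH1 were below it. KRT8 (-1.23) and KRT18 (-0.59) were called lower and PPARG (1.27) higher. PPARG read 4.46 and 4.61 in GFP cells, under the filter level, and so was tested only through the GFP-RhoGDI2 arrays. The part of these 3 genes in the receptor results was not tested. On the array were 18 markers of blood, endothelial, fibroblast, mast and melanocyte cells, and 5 of them were above the filter level. Of those 5, 0 were called by limma, beside 4.83% called higher and 3.35% lower of all genes tested, so 0 is near that share.

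Of the 42 measured genes, 26 had a representative probe set at or above the filter level and were tested. KIT was lower and DDR2 higher in the GFP-RhoGDI2 cells, and the other 24 were not called. So 1 of 26 was called higher and 1 of 26 lower, while of all 12123 genes tested 4.83% were called higher and 3.35% lower; the shares among the receptors are near that background. The median difference of the 26 was 0.022 (-0.002 in preparation A and 0.041 in preparation B) against -0.013 for all genes tested, and the median size of the difference was 0.144 against 0.141. At an unadjusted p under 0.05 there were 6 of the 26, and 27.1% of all genes tested. A gene with several probe sets is represented by the one with the highest mean.

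**Figure D1:**
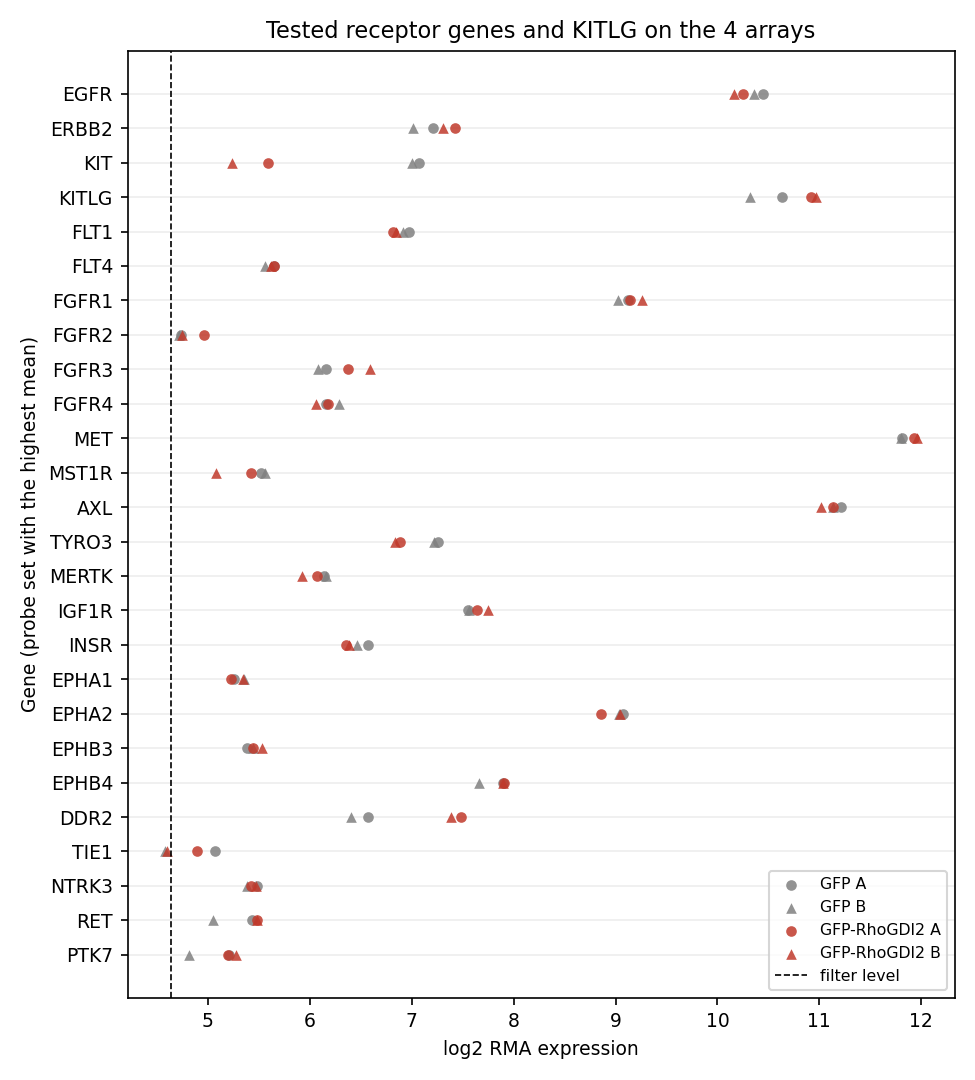
Log2 RMA expression (x axis) of the 26 tested genes (rows) on each of the 4 arrays; grey points are GFP and red points GFP-RhoGDI2, circles preparation A and triangles preparation B, and the dashed line is the filter level of 4.637. For KIT both red points lie left of the grey ones, for DDR2 both lie right of them, and for most other genes the 4 points lie close together.

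**Figure D2:**
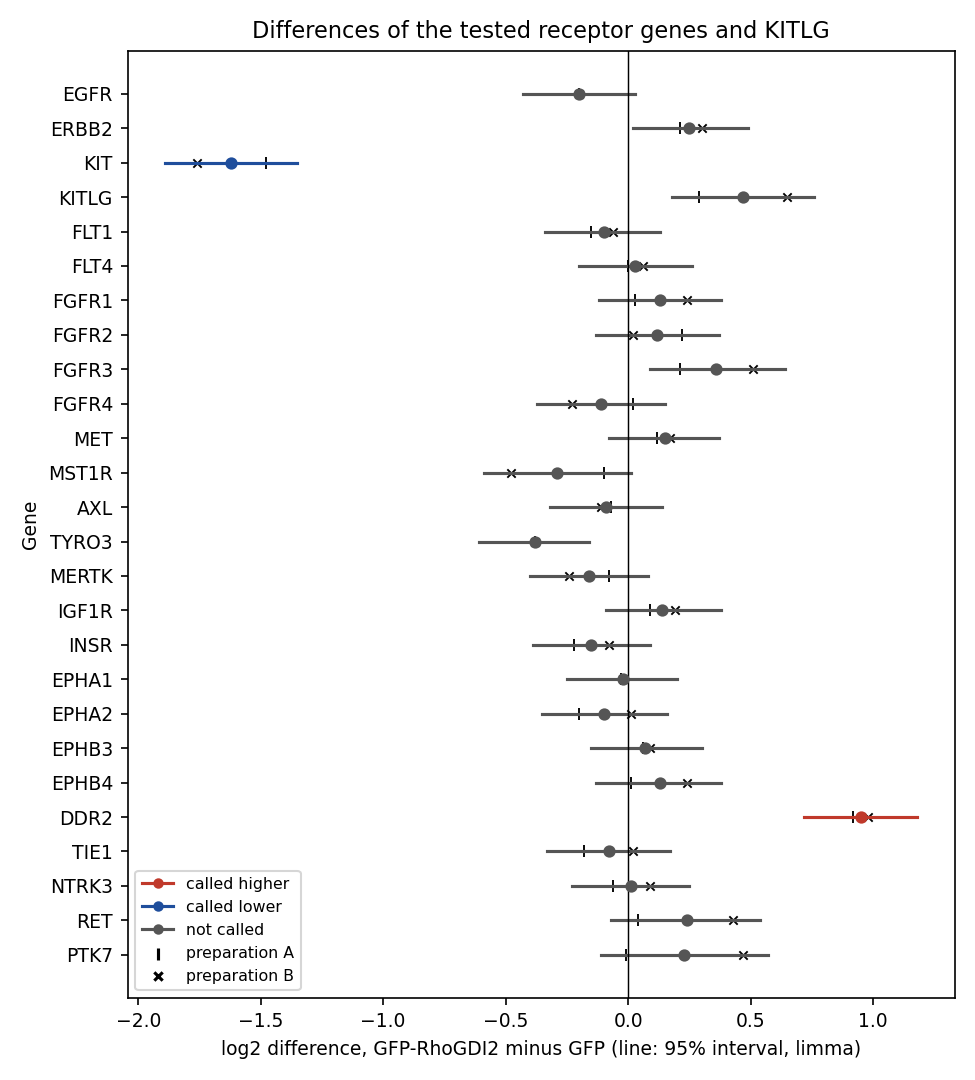
Log2 difference, GFP-RhoGDI2 minus GFP (x axis), of the same 26 genes with the 95% interval from limma as a line; the bar and the cross mark the difference within preparation A and within preparation B. KIT at -1.62 and DDR2 at 0.95 are the genes called, and the intervals of the representative probe sets of the other 24 lie between -1 and 1.

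KIT, the receptor for stem cell factor and best known in mast cells, melanocytes, germ cells and gastrointestinal stromal tumours, had the largest difference of the set. Its probe set (205051_s_at, the single one for the gene) read 7.07 and 7.00 in GFP cells (A, then B) against 5.59 and 5.24 in GFP-RhoGDI2 cells. Both GFP-RhoGDI2 arrays lay below both GFP arrays, with means of 7.03 ± 0.05 (SD, n = 2) for GFP and 5.41 ± 0.24 (SD, n = 2) for GFP-RhoGDI2. KIT fell by 1.62 (SE 0.108, 95% interval -1.89 to -1.35, adjusted p = 0.00179), to a level 3.08-fold lower, with differences of -1.48 in preparation A and -1.76 in preparation B. By size of fall KIT had rank 11 among the 12123 genes tested, 43 of which were called lower by at least 2-fold. Leaving out any 1 array kept the call, with differences from -1.79 to -1.45. Of the mast cell markers, TPSAB1 differed by -0.02 and CPA3, under the filter level, by -0.10. Of the 3 melanocyte markers, PMEL differed by -0.26 (limma, adjusted p = 0.163), while MLANA and TYR lay under the filter level. The summed log2 level of the 3 was 12.7 and 12.5 in GFP cells against 11.9 and 12.0 in GFP-RhoGDI2 cells. That of TPSAB1 and CPA3 was 8.8 and 8.0 against 8.2 and 8.4. Both sums include markers under the filter level, and the part of these markers in the KIT result was not tested.

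KITLG encodes stem cell factor, the ligand of KIT, and its probe sets pointed the opposite way. The representative one (226534_at) read 10.63 and 10.32 in GFP cells against 10.92 and 10.97 in GFP-RhoGDI2 cells, a difference of 0.47 (SE 0.118, 95% interval 0.18 to 0.76) that missed the threshold (adjusted p = 0.0717). The groups did not overlap there, but the difference was 0.29 in preparation A and 0.65 in preparation B. A second KITLG probe set (207029_at) read 6.90 and 7.14 against 7.94 and 8.07, a rise of 0.98 (SE 0.0943, adjusted p = 0.00591). A further one (211124_s_at) read 6.57 and 7.04 against 8.00 and 7.69, a rise of 1.04 (SE 0.186, adjusted p = 0.033), with 1.43 in preparation A and 0.65 in preparation B. The last (216974_at) lay between 2.81 and 2.92 on all arrays, under the filter level. So 2 of the 3 KITLG probe sets tested were called higher and the groups overlapped in none of the 3. Groups that did not overlap were also seen in 54.5% of all genes tested. Without the GFP-RhoGDI2 B array, which also drops the block, both calls were lost, at 0.91 for 207029_at (adjusted p = 0.0603) and 1.19 for 211124_s_at (0.0626), and the latter was also lost without GFP A (0.80, 0.052) and without GFP-RhoGDI2 A (0.89, 0.116).

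DDR2, a receptor kinase that is activated by fibrillar collagen and is typical of mesenchymal cells, was higher in the GFP-RhoGDI2 cells. Its representative probe set (227561_at) read 6.57 and 6.40 in GFP cells against 7.48 and 7.39 in GFP-RhoGDI2 cells, with means of 6.48 ± 0.12 and 7.43 ± 0.07 (SD, n = 2 each), so the groups did not overlap. The rise was 0.95, or 1.93-fold (SE 0.0928, 95% interval 0.72 to 1.18, adjusted p = 0.00625), with 0.92 in preparation A and 0.98 in preparation B. It was called without each of the arrays in turn, at 0.87 to 1.03. Of the 4 fibroblast markers, PDPN was above the filter level and differed by 0.01, and DCN, LUM and FAP lay under it.

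The other 3 DDR2 probe sets were higher as well. On 205168_at the GFP arrays read 5.80 and 5.30 and the GFP-RhoGDI2 arrays 6.23 and 6.02, a rise of 0.58 (adjusted p = 0.0388). On 225442_at they read 5.55 and 4.69 against 6.34 and 6.31, a rise of 1.20 (adjusted p = 0.0257). On 235631_at they read 5.20 and 4.67 against 5.40 and 5.37, a difference of 0.45 that was not called (adjusted p = 0.113). In these 3 the GFP B array was lower than GFP A by 0.50 to 0.86, so the differences in preparation B (0.73, 1.62 and 0.70) were larger than those in preparation A (0.43, 0.79 and 0.20). Without GFP B and the block, the differences were 0.33, 0.77 and 0.19, and 225442_at alone of the 3 was still called (adjusted p = 0.028). The call of 205168_at was also lost without the block alone (adjusted p = 0.123), and those of 205168_at and 225442_at without GFP-RhoGDI2 A (0.48 and 1.19, adjusted p = 0.358 and 0.157) and without GFP-RhoGDI2 B (0.68 and 1.22, 0.225 and 0.161). With no filter on low values 205168_at was not called (0.0629), and without GFP A 235631_at was (0.71, adjusted p = 0.0428).

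Over all 147 probe sets of the set, 60 were tested, and the 6 called are those of KIT, KITLG and DDR2 given above, 5 higher and 1 lower. Over all 27307 probe sets tested, 4.63% were called higher and 3.01% lower. Probe sets of 1 gene read transcripts of that gene, not always the same ones, and are not independent counts.

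**Figure D3:**
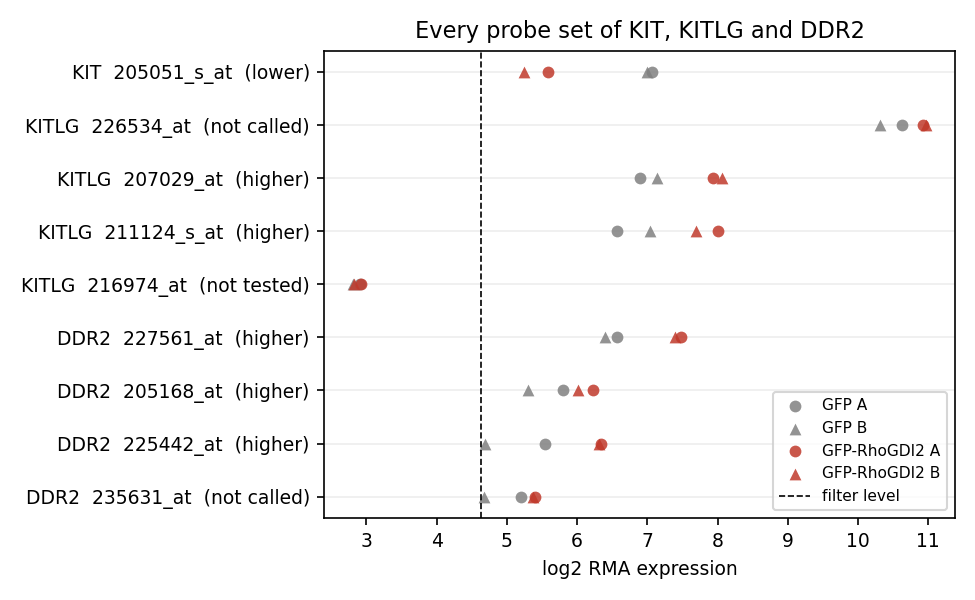
Log2 RMA expression (x axis) of every probe set of KIT, KITLG and DDR2 (rows) on the 4 arrays, grey for GFP and red for GFP-RhoGDI2, circles for preparation A and triangles for preparation B; the words beside each name give the call. The red points lie left of the grey ones for KIT and right of them for 3 KITLG and 4 DDR2 probe sets, with GFP B the lowest point of each DDR2 row.

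The promoter windows of these 3 genes are shown because they are the genes whose probe sets were called. Each runs from 250 bases before to 50 bases after an annotated start, on the gene's strand, from RefSeq on GRCh38.p14. KIT has its window at chr4:54657707-54658006 on the plus strand, KITLG at chr12:88580422-88580721 on the minus strand, and DDR2, for which 3 starts are listed, has its first at chr1:162630613-162630912 on the plus strand. Capitals mark matches, on either strand, to TATAAA (the TATA box), GGGCGG (a GC box), CACCTG (an E-box) and TGANTCA (an AP-1 site).
KIT: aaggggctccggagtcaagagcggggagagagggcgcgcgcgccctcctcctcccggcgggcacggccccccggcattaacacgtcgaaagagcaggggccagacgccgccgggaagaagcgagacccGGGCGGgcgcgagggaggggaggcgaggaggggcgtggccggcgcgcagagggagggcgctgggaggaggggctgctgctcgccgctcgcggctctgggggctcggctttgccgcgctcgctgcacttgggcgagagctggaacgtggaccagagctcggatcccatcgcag
KITLG: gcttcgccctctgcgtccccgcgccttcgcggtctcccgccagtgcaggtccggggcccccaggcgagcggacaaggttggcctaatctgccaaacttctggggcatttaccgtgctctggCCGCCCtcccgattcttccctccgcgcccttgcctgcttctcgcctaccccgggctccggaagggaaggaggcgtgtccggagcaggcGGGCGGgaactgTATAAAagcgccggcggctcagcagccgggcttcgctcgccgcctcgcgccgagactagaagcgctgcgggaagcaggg
DDR2: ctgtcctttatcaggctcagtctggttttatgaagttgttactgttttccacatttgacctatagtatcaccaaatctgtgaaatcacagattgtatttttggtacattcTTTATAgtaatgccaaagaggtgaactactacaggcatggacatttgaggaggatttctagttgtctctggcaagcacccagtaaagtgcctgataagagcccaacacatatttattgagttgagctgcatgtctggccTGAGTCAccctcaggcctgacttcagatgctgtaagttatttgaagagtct

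The KIT window was 74.3% G and C and held 38 CG pairs, with 1 GC box. The KITLG window was 69.7% G and C, with 34 CG pairs, 2 GC boxes and 1 TATA box. The DDR2 window was 41.0% G and C, with 0 CG pairs, 1 TATA box match and 1 AP-1 match, and its other windows were 45.0% and 44.7%. CACCTG was in none of the 3 windows printed. Among all 35116 RefSeq windows of this length, 11.5% held TATAAA, 45.0% GGGCGG, 20.6% CACCTG and 7.7% TGANTCA, and the median content was 58.7% G and C. A letter match is not a site in use, and the array does not tell which start was used.

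A first window was found for 39 of the 42 measured genes. In the 24 with a tested probe set its G and C content had a median of 73.3% (41.0% to 86.3%), with DDR2 the lowest. In the 15 under the filter level the median was 59.7% (43.0% to 71.0%). This is a description of which receptors lay above the filter, not of a difference between the lines.

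The ErbB receptors bind EGF-like ligands, ERBB2 acting as the shared partner without a ligand of its own. EGFR read 10.45 and 10.36 in GFP cells against 10.25 and 10.16 in GFP-RhoGDI2 cells, a difference of -0.20 in both preparations (95% interval -0.43 to 0.03, adjusted p = 0.234). The groups did not overlap, yet the other 8 tested EGFR probe sets gave differences from -0.12 to 0.28 and none was called. ERBB2 read 7.21 and 7.01 against 7.42 and 7.31, a difference of 0.25 (95% interval 0.02 to 0.49, adjusted p = 0.159). ERBB3 and ERBB4 lay under the filter level.

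MET, the receptor for hepatocyte growth factor, read 11.81 and 11.80 against 11.93 and 11.96, a difference of 0.15 (95% interval -0.08 to 0.37, adjusted p = 0.373). Its other 3 probe sets differed by 0.18 to 0.56, all in the same direction and none called; the largest (213816_s_at) read 6.25 and 7.07 against 7.22 and 7.22, with GFP A alone apart from the rest. MST1R, the related receptor for macrophage-stimulating protein, read 5.52 and 5.56 against 5.42 and 5.08, a difference of -0.29 (adjusted p = 0.201), with -0.10 in preparation A and -0.48 in preparation B.

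The TAM receptors AXL, TYRO3 and MERTK bind GAS6 and protein S. By representative probe sets, TYRO3 came closest to a call after KIT and DDR2. It read 7.26 and 7.22 in GFP cells against 6.88 and 6.84 in GFP-RhoGDI2 cells, a difference of -0.38 in each preparation (SE 0.0917, 95% interval -0.61 to -0.16, adjusted p = 0.0649). Its other probe set (211431_s_at) read 6.34 and 5.69 against 5.74 and 5.85, with overlapping groups and a difference of -0.22. MERTK differed by -0.16 on its representative probe set and by -0.39 on another (211913_s_at, adjusted p = 0.0675), which read 6.16 and 6.07 against 5.83 and 5.63. AXL, at 11.21 and 11.13 against 11.13 and 11.02, differed by -0.09 (95% interval -0.32 to 0.14). All 3 representative differences were below 0 and none was called.

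Among the FGF receptors, FGFR3, which is often mutated in bladder tumours, read 6.16 and 6.08 against 6.37 and 6.59, a difference of 0.36 (95% interval 0.09 to 0.64, adjusted p = 0.109). FGFR1 read 9.12 and 9.02 against 9.14 and 9.26, a difference of 0.13 (adjusted p = 0.461). Of its other 5 tested probe sets, 4 differed by 0.26 to 0.42 and 215404_x_at by -0.07; the largest (211535_s_at), at 8.10 and 7.93 against 8.44 and 8.43, missed the threshold (adjusted p = 0.0595). FGFR2, at 4.74 and 4.72 against 4.96 and 4.75, differed by 0.12, and FGFR4, whose groups overlapped, by -0.11.

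Of the vascular receptors, which respond to VEGF and angiopoietin and are typical of endothelial cells, FLT1 differed by -0.10, FLT4 by 0.03 and TIE1 by -0.08, and KDR and TEK were under the filter level. Of 5 endothelial markers on the array, PECAM1 alone was above the filter level and differed by -0.07 (limma, adjusted p = 0.699). IGF1R and INSR, the receptors for insulin-like growth factor and insulin, differed by 0.14 (95% interval -0.09 to 0.38) and -0.15 (95% interval -0.39 to 0.09). IGF1R read 7.55 and 7.56 against 7.64 and 7.75, and INSR 6.57 and 6.46 against 6.35 and 6.38.

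The 4 EPH receptors tested had small differences. EPHA2, which many carcinomas express, read 9.07 and 9.03 against 8.86 and 9.04 (difference -0.10, 95% interval -0.35 to 0.16). EPHB4, the main partner of EFNB2, read 7.90 and 7.66 against 7.91 and 7.90 (difference 0.13, 95% interval -0.13 to 0.38). EPHA1 and EPHB3 differed by -0.02 and 0.07. Of the remaining tested genes, RET differed by 0.24 and the pseudokinase gene PTK7 by 0.23, both with nearly all of it in preparation B (0.43 and 0.47, against 0.04 and -0.01 in preparation A), and NTRK3 by 0.01.

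For the 24 tested genes that were not called, the 95% intervals of the representative probe sets reached 0.23 to 0.34 to either side of the difference. Those of all 24 lay within a 2-fold change, and those of 18 within 0.5 of 0 on the log2 scale. These widths are those of the fit with 1 pooled prior variance. The bounds do not hold for every probe set of these genes. The intervals of KITLG 207029_at and 211124_s_at, both called higher, reached beyond a 2-fold change. So did that of MET 213816_s_at, which was not called. A change of that size is therefore not excluded for KITLG and MET.

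The other 16 genes had no probe set whose mean over the 4 arrays reached the filter level. They were ERBB3, ERBB4, PDGFRA, PDGFRB, CSF1R, KDR, EPHA3, EPHA4, EPHA5, EPHA7, EPHB1, EPHB6, TEK, NTRK2, ALK and LTK. Their representative values ran from 2.86 to 4.72 over all arrays, and their differences from -0.33 (PDGFRA) to 0.34 (EPHA4). EPHA4 read 4.39 and 4.33 against 4.72 and 4.67, and PDGFRA 4.49 and 4.36 against 4.26 and 3.92. With no filter on low values, none of the 16 was called by limma, with adjusted p = 0.183 for EPHA4 and 0.213 for PDGFRA. On their other probe sets the differences reached 0.49 (TEK, 206702_at) and -0.44 (PDGFRA, 203131_at). Neither was called in that limma fit (adjusted p = 0.0868 and 0.133).

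Ligand genes of these receptors were called in both directions. Of 39 ligand genes on the array, 27 were tested, 4 were called higher and 3 lower, beside the 4.83% and 3.35% of all genes, with a median difference of -0.005. VEGFC, the lymphatic growth factor that binds FLT4, read 6.32 and 6.35 against 8.07 and 8.13, and its rise was 1.76 (SE 0.0919, adjusted p = 7.78e-04). PDGFC, a ligand of PDGFRA, rose by 0.80 (9.42 and 9.30 against 10.18 and 10.14, adjusted p = 0.0105), and VEGFA, a ligand of FLT1 and KDR, by 0.72 (9.38 and 9.13 against 10.06 and 9.89, adjusted p = 0.0144).

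In the other direction, 2 ligands of EGFR fell. TGFA read 7.94 and 8.04 against 6.97 and 6.77 and fell by 1.12 (SE 0.111, adjusted p = 0.00652); its other tested probe set differed by -0.06. HBEGF read 10.10 and 10.10 against 9.41 and 9.47 and fell by 0.66 (adjusted p = 0.0178), with -0.57 on a second probe set that was also called. The 20 tested ligands that were not called differed by -0.45 (NRG1, which binds ERBB3 and ERBB4, adjusted p = 0.0513) to 0.44 (EREG, a further EGFR ligand, 0.0936, and VEGFB, 0.071). PTN, encoding the heparin-binding factor pleiotrophin, read 6.00 and 5.95 against 4.96 and 4.82 and fell by 1.08 (adjusted p = 0.00403).

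The seventh ligand called, CSF1, had the smallest change of the 7 and is named after its values were seen, because CSF1R is in the set: it rose by 0.47 (adjusted p = 0.0488), which was no longer called in the fit without preparation (adjusted p = 0.108) or without any 1 array (0.31 to 0.63, adjusted p = 0.104 to 0.373). The CSF1 call was also lost with no filter on low values (0.0927), robust moderation (0.0504) and quantile normalization (0.0611), and none of its other 3 tested probe sets, at 0.06 to 0.64, was called. The calls of VEGFC, TGFA and PTN held in every alternative fit that tested them. HBEGF missed the threshold without any 1 of the arrays (adjusted p = 0.0515 to 0.0968, differences -0.68 to -0.63), PDGFC without GFP-RhoGDI2 A (0.78, 0.0634) or B (0.82, 0.0602), and VEGFA without GFP B (0.59, 0.0813), GFP-RhoGDI2 A (0.63, 0.134) or B (0.80, 0.0883).

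Of the 8 ephrin genes, all tested, 2 were called higher and 0 lower, beside 4.83% and 3.35% of all genes tested. EFNA5 read 7.31 and 7.58 against 9.10 and 9.19, and its rise was 1.70, or 3.25-fold (SE 0.0994, adjusted p = 0.00112), with 1.10 and 1.20 on its other 2 tested probe sets, both called. EFNB2 read 9.94 and 9.68 against 10.45 and 10.42 and rose by 0.62 (adjusted p = 0.0271), while its other probe set gave 0.32, not called. The EFNB2 call was lost without GFP B (0.49, adjusted p = 0.116), GFP-RhoGDI2 A (0.61, 0.153) or GFP-RhoGDI2 B (0.64, 0.149). Beside these, EPHA2 and EPHB4 differed by -0.10 and 0.13, and the EPHA genes 3, 4, 5 and 7 were under the filter level.

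Of 14 further receptor tyrosine kinase genes on the array, 7 were tested and 0 were called by limma. Of all genes tested 4.83% were called higher and 3.35% lower, and 0 of 7 is near that share. Among the 7, the largest differences were those of the WNT5A receptor genes ROR2 (-0.51, adjusted p = 0.0535) and ROR1 (0.37, adjusted p = 0.072).

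Among 26 tested genes of adaptors and ubiquitin ligases, 3 were called higher and 1 lower, with a median difference of 0.003. The share of all genes tested was 4.83% higher and 3.35% lower, and 1 of 26 lower is near it. The insulin receptor substrates moved apart: IRS1 rose by 1.02 (7.45 and 7.84 against 8.68 and 8.64, adjusted p = 0.0134) and IRS2 fell by 0.55 (8.81 and 8.90 against 8.34 and 8.26, adjusted p = 0.0331). The other 2 tested IRS1 probe sets differed by 0.43 and 0.59, 1 of them called, and the other IRS2 probe set by -0.50, not called. PIK3R3, a regulatory subunit of PI3-kinase, rose by 1.02 (6.75 and 7.11 against 7.81 and 8.10, adjusted p = 0.00493). GAB1, a docking protein of MET and EGFR, rose by 0.59 (adjusted p = 0.0243) from a GFP mean of 4.40, under the filter level, and its call was lost without the block (adjusted p = 0.0773). The other 22 tested genes, GRB2 and SOS1 among them, differed by -0.41 (PLCG2, adjusted p = 0.0646) to 0.28 (SHC1, adjusted p = 0.13) and were not called.

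These calls were not all kept when 1 array and the block were left out. Without GFP-RhoGDI2 B, PIK3R3 was at 0.88 (adjusted p = 0.0986) and IRS1 at 1.04 (0.0696). Without GFP-RhoGDI2 A, IRS1 was at 1.0 (0.0706). IRS2 was not called without any 1 of the arrays (adjusted p = 0.0793 to 0.175, differences -0.60 to -0.51) or with no filter (0.0581), and GAB1 was not called without any 1 of them either (0.0748 to 0.286, differences 0.42 to 0.75) or with values floored at the filter level (0.35, 0.114).

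Of 23 tested feedback inhibitors and MAPK output genes, 2 were called higher and 1 lower, with a median difference of -0.064; these counts are near the 4.83% and 3.35% of all genes tested. ETV1, an ETS transcription factor known to act downstream of KIT in gastrointestinal stromal tumours, read 6.80 and 6.93 against 5.44 and 5.39 and fell by 1.45 (SE 0.099, adjusted p = 0.00193); its other 3 tested probe sets differed by -0.63 to -0.38 and were not called. IER3, an immediate early gene, rose by 0.88 (adjusted p = 0.0102), and was at 0.82 without GFP-RhoGDI2 B (0.0566). SPRY1, a Sprouty inhibitor, rose by 0.74 (adjusted p = 0.0214), with 0.35 and no call on its other tested probe set. It was not called when preparation was dropped from the fit (0.0762), or without GFP B (0.47, 0.162), GFP-RhoGDI2 A (0.63, 0.259) or GFP-RhoGDI2 B (0.86, 0.163). The other 20 tested genes, DUSP6, ETV4 and ETV5 among them, differed by -0.37 (DUSP5, adjusted p = 0.0692) to 0.19 (ERRFI1, adjusted p = 0.271) and were not called.

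**Figure D4:**
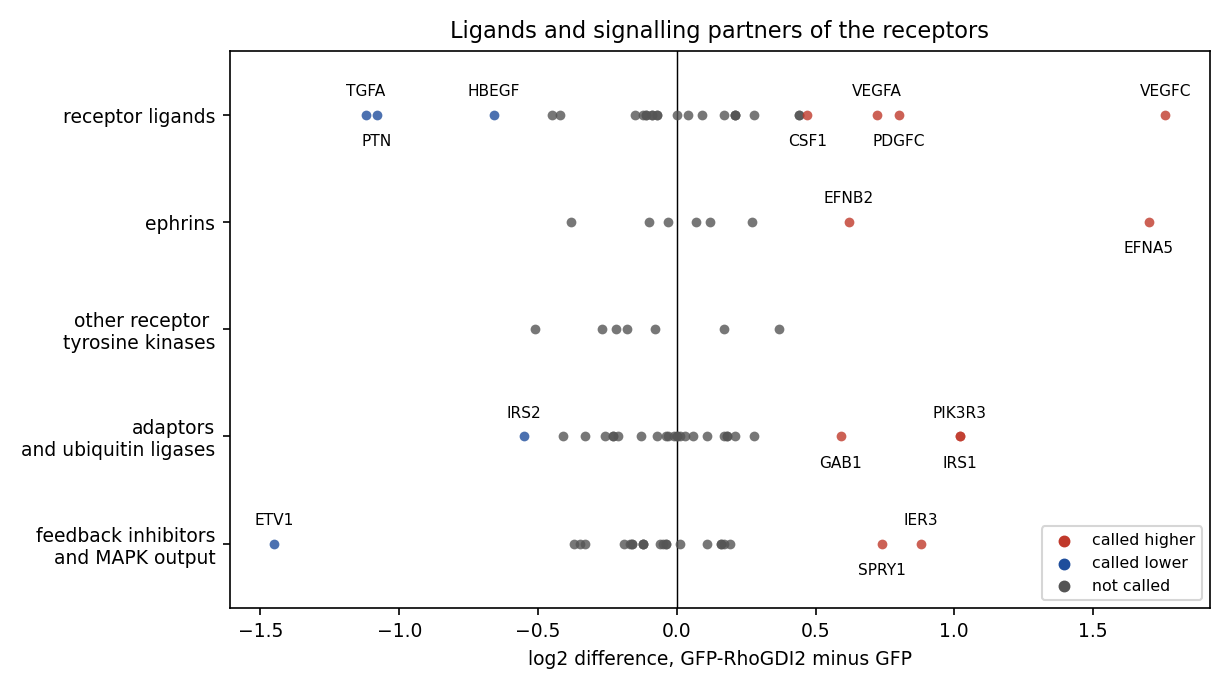
Log2 difference, GFP-RhoGDI2 minus GFP (x axis), of every tested gene of 5 lists (rows); red points were called higher, blue lower and grey not called, and the called genes are named. Ligands and ephrins reach from -1.12 (TGFA) to 1.76 (VEGFC), and no further receptor kinase gene is coloured.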

How the data were processed

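Each of the 4 samples is 1 array hybridised with biotin-labelled cRNA made from 6 µg of total RNA, per the labels. The authors deposited log2 expression per probe set; RMA is the method named in the submitters' processing notes, but neither software nor version is named. They were used as deposited. Arrays have no read depth; the number of arrays limits the precision.

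Control probe sets (62 of 54675) were left out. The platform annotation, with symbols updated through gene identifiers, gave 1 gene to 41091 probe sets and several to 1801, and did not list 11721. Probe sets with a mean at or above 4.637 entered the test (27307), with limma 3.58.1 in R 4.3.3 (lmFit, eBayes), preparation as a block, and Benjamini-Hochberg adjustment over all of them. The fit had 1 residual and 4.71 prior degrees of freedom, so variances come mostly from the pooled prior. The labels state the pairing; the B minus A differences of the groups correlated at 0.264 over tested probe sets. The fit was tested on simulated data.

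Named were all measured members, ARHGDIB, and up to 6 called genes of each list by size of change; CSF1 and the list genes named without a call were added after their values were seen. The members and lists were chosen with earlier results of these data known. The 10 alternatives are no block, each array left out, 2 other filters, trend or robust moderation, quantile normalization, a floor, probe set means, and no shared-transcript probe sets.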

Additional observations from a re-analysis of the deposited data

How the results depend on the processing

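Over all genes tested, 991 were called with the preparation block. Without the replicate block there were 641, with the upper-quartile filter 1876, with an intensity trend 2879, and with each gene's probe sets averaged 2314; without 1 array and the block they ranged from 215 to 421. Genes of the set, KITLG included, that were called higher numbered 2 with the upper-quartile filter (ERBB2 and KITLG), 2 with the trend (DDR2 and KITLG) and 3 with probe set means (DDR2, KITLG and MET). Those called lower numbered 3 with the trend (EGFR, KIT and TYRO3), 2 with probe set means (KIT and TYRO3) and 0 without the _s_at and _x_at probe sets, which leave KIT with none. The trend called 11.6% of all genes higher and 12.2% lower. It also called higher FGFR1 207937_x_at (limma, adjusted p = 0.0375), 210973_s_at (0.0459) and 211535_s_at (0.00352), and MET 211599_x_at (0.0124) and 213816_s_at (0.00921). MERTK 211913_s_at (0.0427) was called lower there. Without GFP B, MET 213816_s_at differed by 0.97. The upper-quartile filter leaves out KIT and DDR2 and gave a median difference of 0.129 over 10 genes. The median was 0.068 over the 16 genes left without _s_at and _x_at probe sets, and ran from -0.005 to 0.068 without 1 array. KIT and DDR2 were called in every alternative that tested them. KITLG on its representative probe set was called with the upper-quartile filter (limma, adjusted p = 0.0161) and the trend (1.40e-04). The mean of the KITLG probe sets, which takes in 207029_at and 211124_s_at, was also called (3.27e-04). In no other alternative was KITLG called, with adjusted p = 0.0988 without the block and 0.124 with no filter. Without 1 array the difference of 226534_at ran from 0.32 to 0.62. TYRO3 was called on its representative probe set with the upper-quartile filter (0.0119) and the trend (0.018), and on the mean of its probe sets (0.0498). No called difference changed sign; of differences called in neither fit, EGFR (0.03), FGFR4 (0.03) and PTK7 (-0.02) did so with probe set means, EPHA1 (0.06) without _s_at and _x_at probe sets, NTRK3 (0.00) with quantile normalization, and 4 had both signs without 1 array: EPHA1 (-0.08 to 0.03), FLT4 (-0.01 to 0.07), NTRK3 (-0.04 to 0.06) and TIE1 (-0.33 to 0.17). The block changed the calls of CSF1, GAB1, SPRY1 and the DDR2 probe set 205168_at among those named. The array cannot show changes in genes near background, and 16 of the 42 measured genes lay under the filter level.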
